A study of Mus musculus with 8 samples.

Results

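Probes for 5 genes, Fas, Ltbr, Cd40, Cflar and Tnfaip3, were followed across sorted fractions of mouse ES cells. They are 5 of 1998 probes that the study's own list of genes differing among the fractions pairs with a symbol, and the arrays hold 42006 distinct probes in all. Only the first 1998 rows of that list were used here, and these rows are meant by the study's list below. The study chose that list on these same samples, so that the 5 genes had to differ among the fractions, and their differences are a description of these samples and not independent evidence.

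The cells were HV ES cells (spelled HIV in the sample labels) of strain 129/Ola, a line in which the Venus fluorescent protein was knocked into the Hex locus, so that Venus reports transcription from Hex. All groups shared this knock-in and were grown without feeder cells in serum with LIF. Each of 2 clones, 5.1 and 16.1, was sorted by flow cytometry for Venus (V) and for SSEA-1 (S), a surface antigen of undifferentiated ES cells. This gave 4 fractions, with Venus (V+S+ and V+S-) or without it (V-S+ and V-S-), each with 1 sample from each clone, 8 samples in all. Fractions were taken from the sample titles, since the deposited design text repeats V-S+ and leaves V+S- out. The study asked whether cells with low Hex transcription resemble an early state of primitive endoderm (PrEn), the extra-embryonic lineage in which Hex is active. Samples carried the dye Cy3 and were hybridised beside a Cy5-labelled Universal Mouse Reference RNA, a pool from cell lines that include fibroblasts, macrophages and lymphocytes. Every value below is a log2 ratio of sample over that reference, so that a value under 0 says that the probe was dimmer in the sample than in the pool and not that the gene was silent. All 4 fractions of a clone lay on 1 slide, and clone and slide cannot be told apart. Fewer expressing cells in a fraction and less RNA per cell cannot be told apart either.

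Receptors of the tumour necrosis factor (TNF) superfamily bind trimeric ligands at the cell surface and pass the signal to adaptor proteins, which can switch on the transcription factor NF-kappaB or start caspase-driven cell death. Fas is a death receptor for Fas ligand. Ltbr, the lymphotoxin beta receptor, and Cd40, a receptor best known from B cells and antigen-presenting cells, signal to NF-kappaB. Cflar encodes c-FLIP, a relative of caspase-8 that restrains caspase activation at death receptors. Tnfaip3 encodes A20, a ubiquitin-editing enzyme that is induced by NF-kappaB and dampens its activation.

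Fas lies at chr19:34290647-34327775, Ltbr at chr6:125306571-125313885, Cd40 at chr2:165055614-165071654, Cflar at chr1:58711311-58758884 and Tnfaip3 at chr10:19000910-19015410 (RefSeq, GRCm38.p6). One probe of 60 bases stood for each gene. The files do not place the probes on the genome, so whether each lies in coding sequence was not determined from an annotation. The probes for Fas and Cd40, the dimmest in the sorted cells relative to background, are printed because their values depend most on how background was treated. Each was open in at least 1 reading frame over its whole length.
Fas probe: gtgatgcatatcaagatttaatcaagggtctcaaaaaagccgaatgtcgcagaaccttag
Cd40 probe: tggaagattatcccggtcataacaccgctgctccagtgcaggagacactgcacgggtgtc

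The 250 bases before the transcript starts of the RefSeq promoter entries were searched on both strands. The motifs sought were the kappaB consensus, which NF-kappaB dimers bind, and the AP-1 motif TGANTCA. Cd40 had no matched entry and was not searched. RefSeq promoter entries were matched for Fas, Ltbr, Cflar and Tnfaip3, the last with 2 starts. For Fas and Cflar that start lies inside the gene's outer bounds given above, so that the window reaches past the outer start. Tnfaip3 held 2 matches to the kappaB consensus and 1 to the AP-1 motif before its upstream start, and Fas held 1 AP-1 match and none to the kappaB consensus. No match to either was found in these windows for Ltbr, Cflar or the other Tnfaip3 start. Over 32851 promoter entries, 3.9% held the kappaB consensus and 6.75% held the AP-1 motif in the same window. The windows of the gene with most matches and of the other gene with a match are shown with the matches in capitals, 5′ to 3′ on the strand of the gene. Those of Tnfaip3 are, in order, the AP-1 motif and the 2 kappaB matches, and that of Fas is the AP-1 motif.
Tnfaip3, minus strand of chr10:19015411-19015660: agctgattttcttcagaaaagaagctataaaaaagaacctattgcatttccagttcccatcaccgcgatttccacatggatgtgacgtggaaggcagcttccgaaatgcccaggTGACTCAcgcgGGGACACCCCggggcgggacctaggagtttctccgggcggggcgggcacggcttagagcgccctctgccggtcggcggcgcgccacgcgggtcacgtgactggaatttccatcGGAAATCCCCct
Fas, plus strand of chr19:34290409-34290658: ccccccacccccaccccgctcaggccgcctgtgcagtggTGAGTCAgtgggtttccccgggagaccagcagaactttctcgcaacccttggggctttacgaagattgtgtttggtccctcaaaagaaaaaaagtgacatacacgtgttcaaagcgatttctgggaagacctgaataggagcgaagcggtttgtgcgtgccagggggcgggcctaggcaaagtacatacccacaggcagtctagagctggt

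Per sample, 28316 to 29671 probes gave a Cy3 signal clear of background on both scans, the median probe was 2.36 to 2.87 times as bright as its background, and no spot was saturated. The fractions differed in lineage markers. All 9 named PrEn markers of 18 listed rose in V+S- against V-S+, among them Gata6 by 0.90 and Sox7 by 1.77 on the log2 scale, and 4 named pluripotency markers of 12 listed fell, Nanog by 0.96 and Pou5f1 by 1.01. Beside these, 5.73% of all 29484 probes tested and 962 of the 1998 on the study's list rose, and 1.28% and 231 of 1998 fell. Markers could be named only where the study's list holds them, and as that list was chosen for differing among these samples, the counts are a description. Col1a2 and Postn, the 2 named fibroblast markers of 8 listed, also rose in V+S-. Their mean log2 ratio lay between -2.58 and -1.85 in the V+S- samples and between -4.35 and -3.38 in the samples of the other fractions, and their part in the results below was not tested. None of the 10 listed macrophage and leukocyte markers or the 6 listed endothelial markers could be named.

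All 5 genes were lowest in the fractions without Venus, higher in V+S+ and highest in V+S-, in both clones. In V+S- they stood between 1.96-fold (Cflar) and 2.97-fold (Fas) above V-S+, and between 2.17-fold (Cflar) and 3.13-fold (Tnfaip3) above V-S-. The values of each gene follow.

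**Figure D1:**
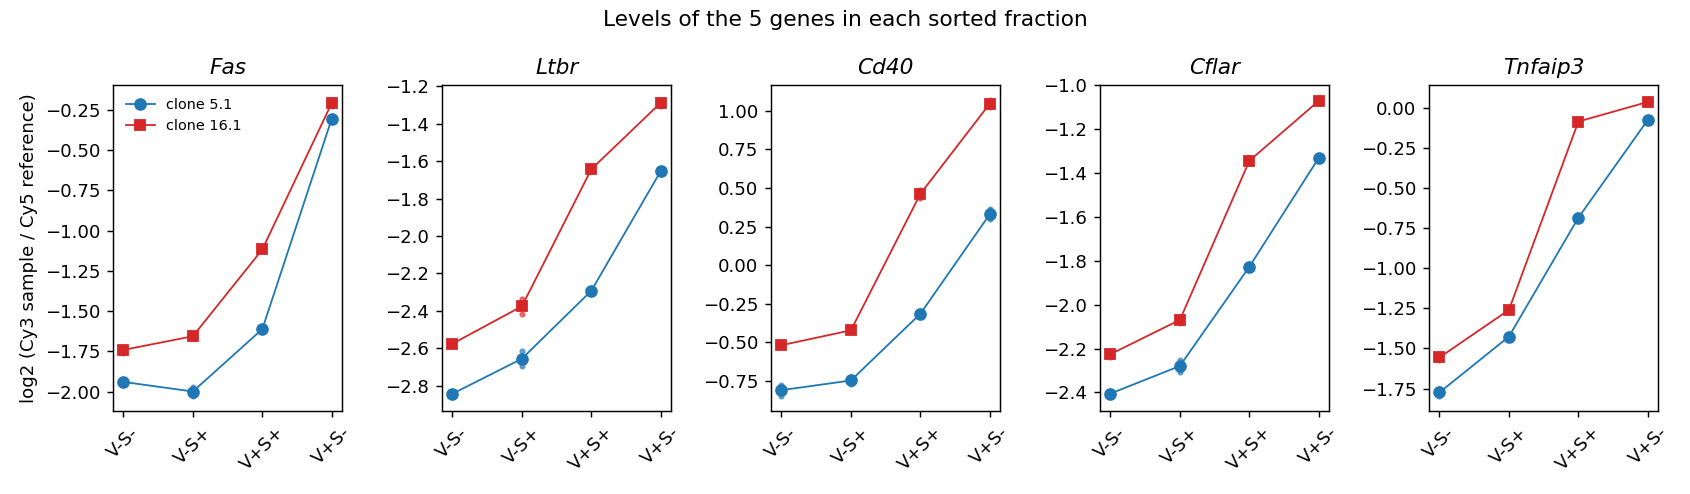
Log2 ratio of sample (Cy3) over reference (Cy5) of each gene in the 4 fractions, with 1 line per clone; large points are samples and small points their 2 repeat scans, and each panel has its own vertical scale. In every panel both clones have their highest value in V+S-, and clone 16.1 lies above clone 5.1 in all fractions.

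Of the receptors, Fas in V-S+ had a log2 ratio of -2.0 for clone 5.1 and of -1.66 for clone 16.1, and in V-S- the ratios were -1.94 and -1.74 in the same order. In V+S+ it reached -1.61 and -1.12, and in V+S- it reached -0.31 and -0.21. The 2 V+S- samples stood clear of all others. Fas rose by 1.57 ± 0.19 (SE, n = 2 samples a fraction) in V+S- against V-S+ on the log2 scale (limma, adjusted p = 0.0129) and by 1.58 ± 0.19 against V-S- (adjusted p = 0.0119). Each call was lost in 3 of 19 alternatives.

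Ltbr in V-S+ had a log2 ratio of -2.66 for clone 5.1 and of -2.38 for clone 16.1, and in V-S- it had -2.84 and -2.58. In V+S+ the values were -2.29 and -1.64, and in V+S- they were -1.65 and -1.29. The V+S+ sample of clone 16.1 lay level with the V+S- sample of clone 5.1, so that the 2 Venus-positive fractions overlapped. Ltbr rose by 1.05 ± 0.24 in V+S- against V-S+ (limma, adjusted p = 0.0371) and by 1.24 ± 0.24 against V-S- (adjusted p = 0.0247). The first call was lost in 8 of 19 alternatives and the second in 6.

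The log2 ratio of Cd40 in V-S+ was -0.75 for clone 5.1 and -0.42 for clone 16.1, and in V-S- it was -0.81 and -0.52. In V+S+ it stood at -0.32 and 0.46, and in V+S- at 0.33 and 1.05. The clones differed more for Cd40 than for the other 4 genes in both Venus-positive fractions, where the fractions overlapped. Cd40 rose by 1.27 ± 0.33 in V+S- against V-S+ (limma, adjusted p = 0.0466) and by 1.35 ± 0.33 against V-S- (adjusted p = 0.0387), with the widest errors of the 5 genes. Its call against V-S+ lay close to the threshold and was lost in 11 of 19 alternatives, and its call against V-S- was lost in 6.

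Of the intracellular regulators, Cflar in V-S+ had a log2 ratio of -2.28 for clone 5.1 and of -2.07 for clone 16.1, and in V-S- it had -2.41 and -2.23. In V+S+ the values were -1.83 and -1.34, and in V+S- they were -1.33 and -1.07. The upper V+S+ sample and the lower V+S- sample were nearly level. Cflar rose by 0.97 ± 0.18 in V+S- against V-S+ (limma, adjusted p = 0.0242) and by 1.11 ± 0.18 against V-S- (adjusted p = 0.0177). The first call was lost in 6 of 19 alternatives and the second in 3.

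The log2 ratio of Tnfaip3 in V-S+ was -1.43 for clone 5.1 and -1.26 for clone 16.1, and in V-S- it was -1.77 and -1.56. It reached -0.69 and -0.09 in V+S+, and -0.08 and 0.04 in V+S-. The V+S+ sample of clone 16.1 had nearly the level of both V+S- samples, whereas that of clone 5.1 lay between the Venus-negative and V+S- samples. Tnfaip3 rose by 1.32 ± 0.20 in V+S- against V-S+ (limma, adjusted p = 0.0169) and by 1.64 ± 0.20 against V-S- (adjusted p = 0.0119). Each call was lost in 3 of 19 alternatives.

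The change lay in the sample channel. Across the 8 samples the uncorrected Cy3 signal of a probe varied between 3.27-fold (Cflar) and 4.47-fold (Cd40 and Tnfaip3), and its Cy5 reference signal varied between 1.19-fold (Fas) and 1.34-fold (Cd40). Every probe was well above background in both channels of all 16 files. Fas was the dimmest in Cy3, at 116 to 464 units against a local background of 41 to 47 units, and at 2.48 times background in its lowest sample. Cd40 ranged between 174 and 777 units. Repeat scans of the same array differed by at most 0.08 on the log2 scale for any of the 5 genes.

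**Figure D2:**
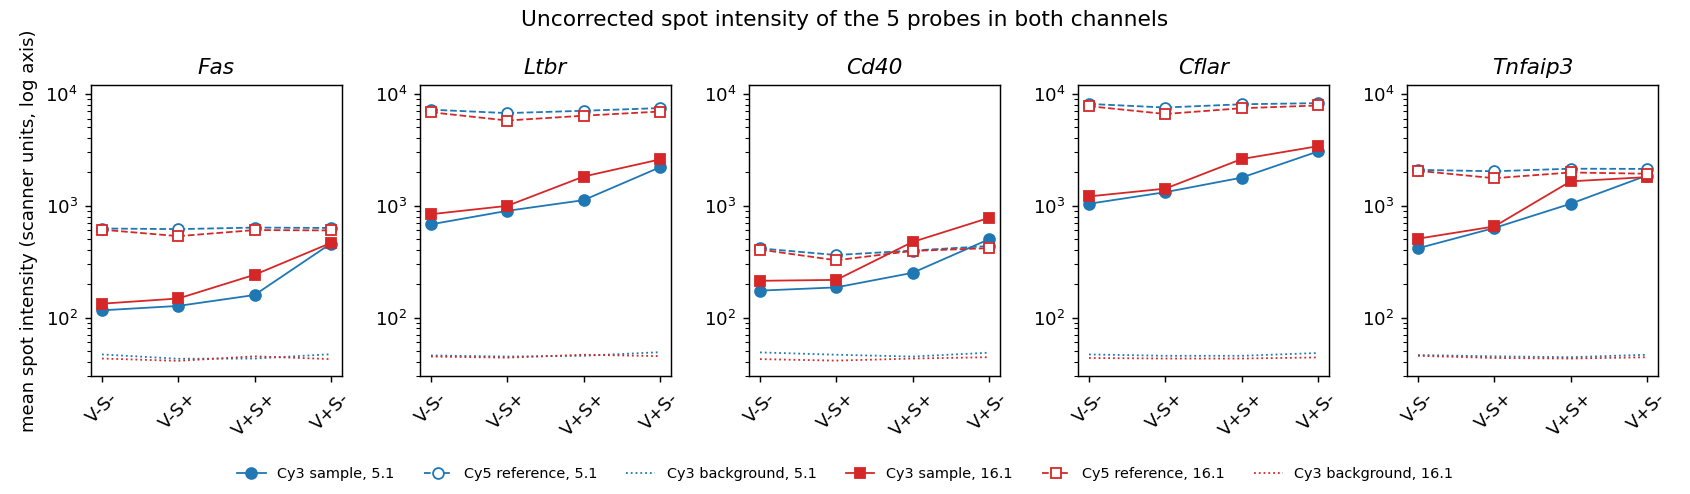
Mean spot intensity in scanner units on a log axis, averaged over 2 scans, for the sample channel (Cy3, filled), the reference channel (Cy5, open) and the local Cy3 background (dotted) of each probe in the 4 fractions and 2 clones. The Cy3 lines climb toward V+S- while the Cy5 lines stay within 1.34-fold, and the Fas probe comes nearest to its background.

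In V+S- against V-S+, 5 of 5 genes passed an FDR of 0.05 with a rise of over 1.5-fold, beside 5.73% of all 29484 probes tested. In V+S- against V-S-, 5 of 5 passed, beside 6.3% of all probes. The study's list was chosen by differences among these fractions, so that nothing about the 5 genes is read from these counts. Among all 29484 probes, the log2 changes of the 5 genes lay between the 97.0th (Cflar) and 99.7th (Fas) percentile against V-S+, and between the 97.6th and 99.6th against V-S-. Within clone 5.1 the rises against V-S+ lay between 0.95 (Cflar) and 1.69 (Fas), and within clone 16.1 between 1.00 (Cflar) and 1.47 (Cd40). With 1 sample left out, calls were lost over the whole array and not only for these genes. Such fits leave 1 sample in a fraction and, having no term for clone, unbalanced clones. Against V-S+, 0 of 5 passed without V+S- of clone 16.1 or without either V-S+ sample, when 0 to 2 of all 29484 probes were called in either direction. Without V+S- of clone 5.1 it was 2 of 5, beside 1194 of all probes, and without either V-S- sample 2 of 5, beside 960. The log2 changes of the 5 genes lay between 0.84 and 1.74 over these fits. Against V-S-, 0 of 5 passed without V+S- of clone 16.1 or either V-S- sample, when 0 of all probes were called, and 3 of 5 without either V-S+ sample, beside 1282 of all probes. The log2 changes lay between 0.98 and 1.75. With an unmoderated test, which is not among the 19 alternatives counted above, 0 of 5 passed in either comparison, beside 337 of all probes against V-S+ and 358 against V-S-.

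**Figure D3:**
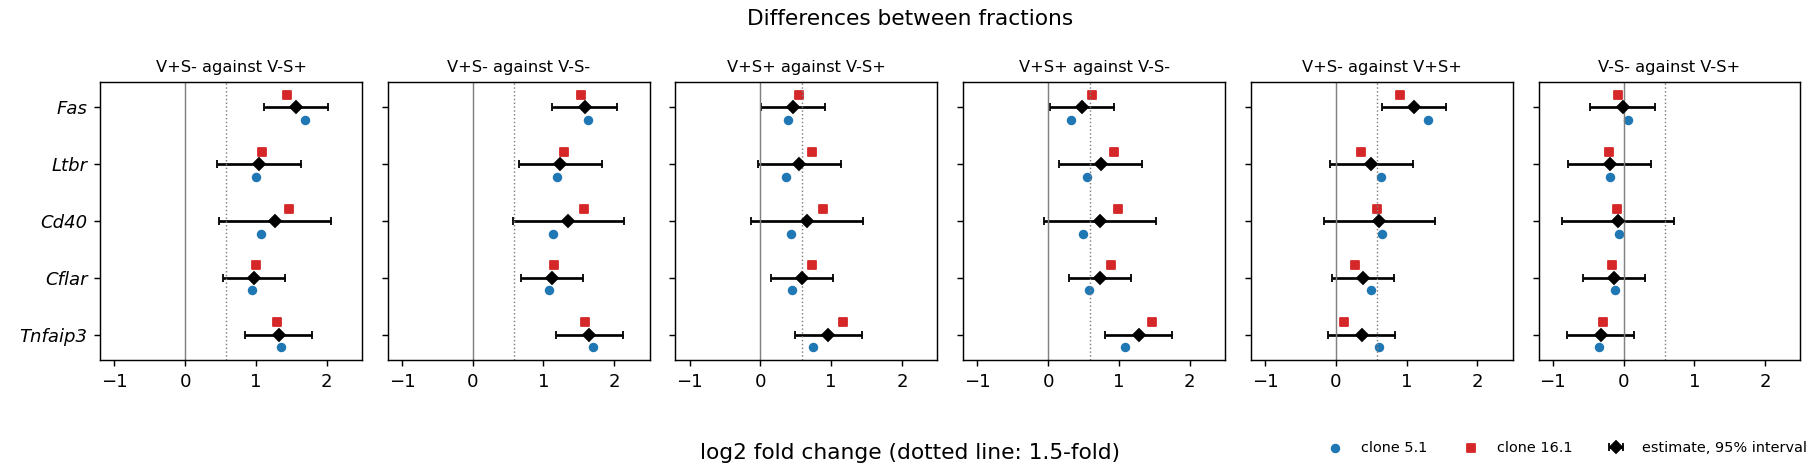
Log2 fold change of each gene in the 6 pairs of fractions: diamonds with bars are the fitted estimate and its 95% interval from 8 samples, and coloured points are the difference within each clone. In V+S- against V-S+ and against V-S- all clone points lie beyond the dotted 1.5-fold line, and in V-S- against V-S+ the intervals of all 5 genes include 0.

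V+S+ and V-S+ both carry SSEA-1 and differ in Venus. At an FDR of 0.05 and over 1.5-fold, the study itself reported changed genes for this pair. It also did so for V+S- against V+S+ and for V-S- against V-S+. In the present fit of V+S+ against V-S+, which has no term for clone, 0 of 5 genes passed. The same held for 0% of all probes, although 5514 probes had an unadjusted p below 0.05. Both V+S+ samples nevertheless lay above both V-S+ samples for 5 of 5 genes, as they did for 27.6% of all probes. The log2 differences were 0.46 ± 0.19 (SE) for Fas, 0.55 ± 0.24 for Ltbr, 0.66 ± 0.33 for Cd40, 0.59 ± 0.18 for Cflar and 0.96 ± 0.20 for Tnfaip3 (limma, adjusted p between 0.162 and 0.326). Within clone 5.1 they lay between 0.36 (Ltbr) and 0.74 (Tnfaip3), and within clone 16.1 between 0.54 (Fas) and 1.17 (Tnfaip3). The fit has no term for clone, so that leaving out 1 sample also mixes the difference between the clones into the result. Without V+S+ of clone 16.1 they were 0.22 for Fas, 0.22 for Ltbr, 0.27 for Cd40, 0.35 for Cflar and 0.66 for Tnfaip3. Leaving out V+S+ of clone 5.1 gave values between 0.71 (Fas) and 1.26 (Tnfaip3). Without V-S+ of clone 5.1 Fas stood at 0.29. With clone as a block, which removes the constant difference between the clones, 3 of 5 passed, Cd40, Cflar and Tnfaip3, beside 3.87% of all probes. Tnfaip3 then had an adjusted p of 0.00471 by limma.

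Of the other pairs, V+S+ against V-S- gave 0 of 5 genes and 0% of all probes, with log2 differences between 0.48 (Fas) and 1.28 (Tnfaip3). The Tnfaip3 difference had an adjusted p of 0.0652 by limma. Without V+S+ of clone 16.1 the differences lay between 0.23 (Fas) and 0.98 (Tnfaip3), and without V+S+ of clone 5.1 between 0.72 and 1.58. With the clone block 4 of 5 passed, all but Fas, beside 4.76% of all probes. Leaving out the V+S+ sample of clone 5.1 alone gave 3 of 5, without any block, beside 1396 of all 29484 probes called in either direction.

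V+S- against V+S+ compares Venus-positive cells without and with SSEA-1. It gave 0 of 5 genes and 0% of all probes, and 4429 probes had an unadjusted p below 0.05. On the log2 scale the difference was 1.11 ± 0.19 for Fas (limma, adjusted p = 0.114), 0.62 ± 0.33 for Cd40, 0.50 ± 0.24 for Ltbr, 0.38 ± 0.18 for Cflar and 0.37 ± 0.20 for Tnfaip3. Without V+S+ of clone 5.1 these were 0.86 for Fas, 0.23 for Cd40, 0.17 for Ltbr, 0.14 for Cflar and 0.066 for Tnfaip3. Without V+S+ of clone 16.1 they lay between 0.63 (Cflar) and 1.35 (Fas), without V+S- of clone 16.1 between 0.26 and 1.06, and without V+S- of clone 5.1 between 0.42 (Tnfaip3) and 1.16 (Fas). The samples of V+S- lay above those of V+S+ without overlap for 3 of 5 genes, Fas, Cflar and Tnfaip3, as for 21.9% of all probes, although Cflar and Tnfaip3 were nearly level between the upper V+S+ and the lower V+S- sample. With the clone block 2 of 5 passed, Fas (adjusted p = 0.00711) and Cd40 (adjusted p = 0.0343), beside 1.75% of all probes. The clone block also kept 5 of 5 against V-S+, beside 8.87% of all probes, and 5 of 5 against V-S-, beside 8.96%.

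V-S- and V-S+ both lack Venus and differ in SSEA-1. V-S- against V-S+ gave 0 of 5 genes and 0% of all probes higher, and 834 probes had an unadjusted p below 0.05. In both clones Ltbr, Cd40, Cflar and Tnfaip3 had lower values without SSEA-1, by log2 differences between -0.32 ± 0.20 (Tnfaip3) and -0.08 ± 0.33 (Cd40), and Fas stood at -0.01 ± 0.19. Their 95% intervals reached from -0.87 at the lowest to 0.71 at the highest, both for Cd40. A change of 1.5-fold was thus not excluded for Cd40 in either direction. A fall of 1.5-fold was not excluded for Tnfaip3 or Ltbr either, with intervals from -0.80 and -0.78. The level of Cd40 in V-S- relative to V-S+ turned to 0.024 on the log2 scale when the Cy3 channel was used alone.

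The overall test among fractions is close to the one by which the study chose its list, and nothing is read from it. By the moderated F-test 3 of 5 genes passed an FDR of 0.05, Fas (adjusted p = 0.0285), Cflar (adjusted p = 0.0426) and Tnfaip3 (adjusted p = 0.0285), beside 7.38% of all probes. Leaving out any sample of V-S+, V-S- or V+S- gave 0 of 5 and 0 of all 29484 probes, and leaving out V+S+ of clone 5.1 gave 5 of 5, beside 4498 of all probes. With the clone block 5 of 5 passed, beside 43.5% of all probes.

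The genes differed in how much of the rise was already present in V+S+. Taking V-S+ as 0% and V+S- as 100% on the log2 scale, Fas in V+S+ stood at 22.9% in clone 5.1 and 37.2% in clone 16.1, the lowest of the 5 genes in both clones. Tnfaip3 stood at 54.9% and 90.6%, the highest in both. Cflar lay next to Tnfaip3, at 47.7% and 72.6%. Ltbr, at 36.2% and 67.3%, and Cd40, at 40.1% and 60.2%, exchanged places between the clones. Each share rests on 1 sample per fraction and was not tested, and each was higher in clone 16.1.

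A separate contrast, which also takes in V-S-, was the interaction, the effect of Venus in cells without SSEA-1 less its effect in cells with SSEA-1. The log2 interaction was 1.12 ± 0.27 for Fas, 0.69 ± 0.34 for Ltbr, 0.69 ± 0.46 for Cd40, 0.53 ± 0.26 for Cflar and 0.69 ± 0.28 for Tnfaip3, and it was positive within both clones for all 5. It passed for 0 of 5 genes and 0% of all probes (limma, adjusted p between 0.571 and 0.774), and 2340 probes had an unadjusted p below 0.05. With the clone block it passed for 1 of 5, Fas (adjusted p = 0.0357), beside 0.95% of all probes.

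The clones were compared with fraction in the model. The study's list was chosen by a test among fractions, each with 1 sample per clone. Differences between the clones enter the spread in such a test, so that this contrast is not free of that choice. All 5 genes had higher values in clone 16.1 in every fraction. Cd40 stood 0.53 ± 0.09 (SE) higher on the log2 scale (limma, adjusted p = 0.00982), Ltbr 0.39 ± 0.07 (adjusted p = 0.0104), Cflar 0.28 ± 0.06 (adjusted p = 0.0164), Fas 0.28 ± 0.07 (adjusted p = 0.0267) and Tnfaip3 0.27 ± 0.08 (adjusted p = 0.0515). None of the 5 reached 1.5-fold, so that 0 of 5 passed both thresholds, beside 2.14% of all probes, and 4 of 5 passed the FDR alone, beside 26.2%. Without either V-S+ sample 1 of 5 passed both, beside 857 of all 29484 probes, and without either V-S- sample 1 of 5, beside 817. In V+S+ the clones lay between 0.48 (Cflar) and 0.78 (Cd40) apart, where the SD of that difference over all probes was 0.30. In V+S- they lay between 0.10 (Fas) and 0.72 (Cd40) apart.

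Genes with a pattern like that of each of the 5 were sought among the other 1997 probes on the study's list, by Pearson's r of log2 ratios over the 8 samples. Because all those probes were chosen for differing among the same samples, high values of r are common and are a description only. The 3 nearest to Fas were Thbd (r = 0.99), Creb3l2 (0.99) and Matn4 (0.99). The 3 nearest to Ltbr were Hivep1, Grk4 and 1200009I06Rik, and those nearest to Cd40 were Cpe, Tcf12 and Il18. The 3 nearest to Cflar were Csf1, Zfp426 and Tmem117, and those nearest to Tnfaip3 were Pdlim7, Zfhx3 and Afap1l2. Csf1 encodes a macrophage growth factor, Il18 a cytokine, and Hivep1 a zinc finger protein that binds kappaB-like sequences. These were picked out for a tie to immune signalling or kappaB sites, and the remaining neighbours are not described here. Among the 5 genes themselves r lay between 0.89 and 0.99 over 10 pairs, and the other member nearest to Fas, Ltbr, ranked only 483rd of 1997.

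The wider pathway was drawn from 6 lists of TNF receptors, ligands, adaptors, NF-kappaB subunits and kinases, feedback inhibitors and NF-kappaB-responsive targets. Beside the 5 genes these lists hold 113 entries, of which the study's list names 22, and the rest were not followed here. In V+S- against V-S+, 14 of the 22 rose and 0 fell, beside 962 and 231 of the 1998 probes on the study's list. Of all probes tested, 5.73% rose and 1.28% fell. The median log2 change of the 22 was 0.80, against 0.67 over all 1998 probes on the study's list and 0.01 over all probes tested. Against V-S-, 17 of 22 rose and 1 fell, beside 1060 and 263 of the 1998 on the study's list. Of all probes, 6.3% rose and 1.49% fell. The median of the 22 was then 0.89, against 0.69 over the study's list and 0.01 over all probes. With clone as a block, 19 of 22 rose and 1 fell against V-S+, beside 1096 and 317 of the 1998 on the study's list and 8.87% of all probes that rose. All 22 were chosen by the study on these samples, and the counts say nothing particular about the pathway.

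Among receptors and ligands, Tnfsf9, the ligand 4-1BBL, rose by 1.31 ± 0.15 in V+S- against V-S+ (limma, adjusted p = 0.0122). Tnfrsf12a, the TWEAK receptor, had a log2 difference of 0.96 ± 0.27 (adjusted p = 0.0602), and Lta, lymphotoxin alpha, had one of 0.60 ± 0.27 (adjusted p = 0.166). With clone as a block both passed, at an adjusted p of 0.00186 and 0.0141. Against V-S-, Tnfrsf12a rose by 1.24 ± 0.27 (adjusted p = 0.0325). In V+S- against V-S+, Mlkl, the executor of necroptosis, rose by 0.99 ± 0.18 (adjusted p = 0.0244). Of the transcription factor and its kinases, in the same comparison, Ikbke rose by 1.19 ± 0.24 and Nfkb2 by 0.74 ± 0.18, while Rela had a log2 difference of 0.56 ± 0.12, which passed the FDR but not the 1.5-fold threshold.

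All 5 named feedback inhibitors of 16 listed rose in V+S- against V-S+, Tnfaip3 among them, beside the 962 of 1998 probes on the study's list. Rnf11, a partner of A20, rose by 0.95 ± 0.14, the deubiquitinase Cyld by 0.83 ± 0.13, the adaptor Tank by 0.73 ± 0.16 and the deubiquitinase Otud7b by 0.71 ± 0.15. Their adjusted p by limma lay between 0.0169 (Tnfaip3) and 0.0326 (Otud7b). Of 11 named NF-kappaB-responsive targets of 24 listed, 6 rose, beside the same 962 of 1998 and 5.73% of all probes tested. The matrix protease Mmp9 rose by 1.87 ± 0.37, Tnfaip6 by 1.48 ± 0.34, Csf1 by 0.95 ± 0.18, the chemokine Cxcl1 by 0.94 ± 0.18, Il15 by 0.77 ± 0.18 and Gadd45b by 0.65 ± 0.15. Ccl2, Ccl7, Cxcl16 and Tlr2 had differences between 0.47 and 1.1 that did not pass. With clone as a block Ccl2 (adjusted p = 0.000652), Cxcl16 (adjusted p = 0.000954) and Tlr2 (adjusted p = 0.000602) passed, and Ccl7 stayed under 1.5-fold. Against V-S-, Ccl2 rose by 1.32 ± 0.31 (adjusted p = 0.0361) and Ccl7 by 0.66 ± 0.15 (adjusted p = 0.0333). Sod2, the mitochondrial superoxide dismutase, stood at -0.66 ± 0.19 against V-S+ (adjusted p = 0.0607, or 0.0145 with the clone block, where it passed) and fell by 0.71 ± 0.19 against V-S- (adjusted p = 0.0488), in both clones.

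**Figure D4:**
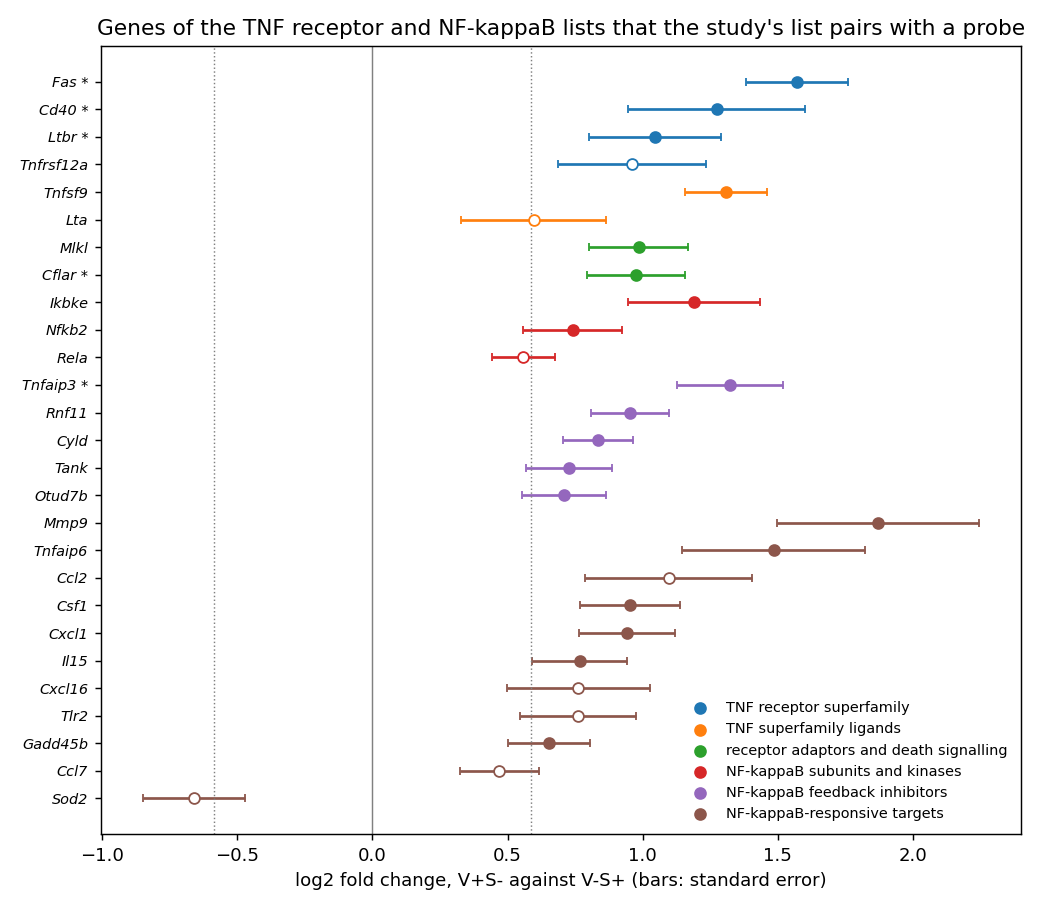
Log2 fold change in V+S- against V-S+ with its standard error for the 27 genes of the 6 lists that have a named probe, coloured by list; filled points passed an FDR of 0.05 and 1.5-fold, dotted lines mark 1.5-fold, and asterisks mark the 5 genes followed here. All points but Sod2 lie above 0.

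The size of the rise depended on processing mostly for Fas. In V+S- against V-S+ it was 1.57 with normexp and loess and 2.03 from scanner-processed signals. From the latter Cd40 stood at 1.44, Tnfaip3 at 1.30, Ltbr at 1.00 and Cflar at 0.91. Over 19 alternatives the log2 change of each gene stayed above 0.84.

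**Figure D5:**
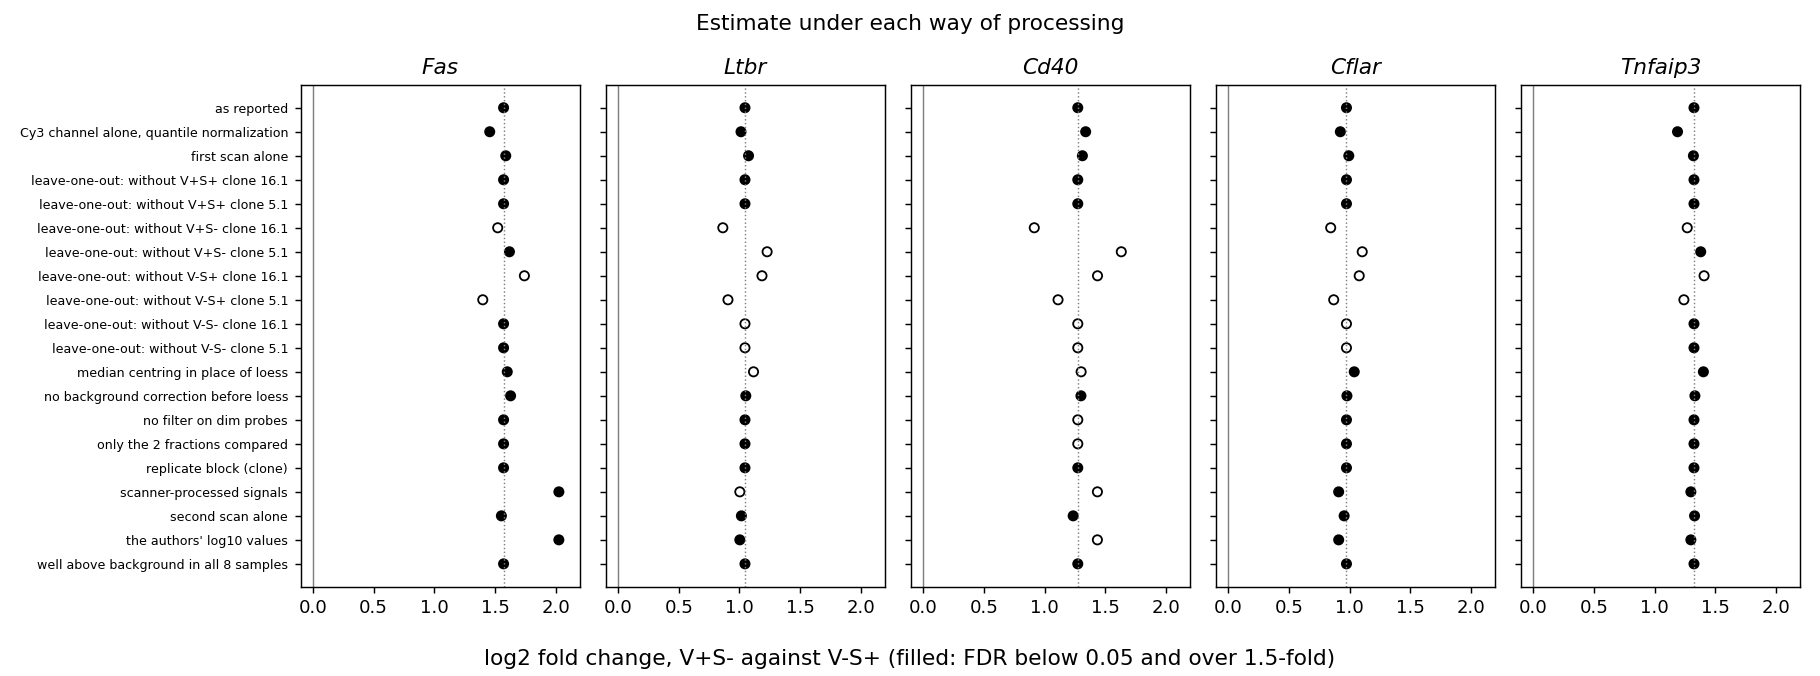
Log2 fold change of each gene in V+S- against V-S+ as reported (top row) and under each of 19 alternatives; filled points passed an FDR of 0.05 and 1.5-fold, open points did not, and the dotted line marks the reported value. No point lies at or below 0, and the open points are mostly those with 1 sample of the compared fractions left out.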

How the data were processed

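RNA of 4 sorted fractions from 2 HV clones was measured on dual-channel 60-base arrays. The authors deposited 16 scanner files of spot intensity (Agilent Feature Extraction) from 2 repeat scans of each array, with a log10 table. Centred per probe, the deposited log10 table followed the scanner's processed ratio of Cy3 to Cy5; the level to which each probe was set is unknown, and the column medians lay between 2.31 and 2.34. Headers and methods give different array design numbers. Mean signals were corrected for median local background by normexp (offset 50) and loess (limma 3.58.1, R 4.3.3), control spots excluded, outlier spots set to missing, duplicate probes and scans averaged. Probes bright in Cy3 in every file of any 1 fraction and with complete values (29484) were fitted with lmFit and eBayes on fraction, all 8 samples, Benjamini-Hochberg over all probes. In the fit on fraction alone, p-values measure only the spread between 2 clones a fraction. With the clone block they measure how far the differences among fractions disagree between the clones. The small number of arrays limits precision. Clones pair the samples, being cell lines: clone deviations correlated across probes at 0.59 to 0.81 between fractions. The scripts were tested on simulated data.

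Members and gene lists were chosen with earlier results of these data known. Genes were named as the 5 members, as list genes with a named probe, and as the 3 probes most correlated with each member; 1998 rows of the study's list, held here in part, gave the names, and its values were not used. Alternatives were other background corrections, scalings, channels, filters and scans, the authors' values, the clone block, fits of 2 fractions, unmoderated tests, no fold threshold and each sample left out.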

Additional observations from a re-analysis of the deposited data

Results flagged for a closer look

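Fas had opposite signs in the 2 clones in V-S- against V-S+: 0.0595 on the log2 scale in clone 5.1 and -0.0847 in clone 16.1. The difference between the clones was not tested. Both values lay within the standard error of the fitted difference between these fractions, which was -0.01 ± 0.19 over the samples. Repeat scans of the same array differed by at most 0.0533 for Fas, with a median of 0.0202.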

How the results depend on the processing

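For V+S- against V-S+ no gene changed direction under any alternative run, and the count that passed was 3 of 5 with scanner-processed signals or median centring, without Ltbr and Cd40 in each, and 0 with an unmoderated test, against 5 as reported. It was 4, without Cd40, with no filter on dim probes, with only the 2 fractions compared and with the authors' log10 values. Against V-S- the unmoderated test gave 0. Leaving out 1 sample gave counts from 0 to 5 against V-S+, 0 to 5 against V-S-, 0 to 3 in V+S+ against V-S-, 0 to 5 in the overall test and 0 to 1 between clones. With clone as a replicate block the counts were 3 in V+S+ against V-S+, 4 in V+S+ against V-S-, 2 in V+S- against V+S+, 1 in the interaction and 5 in the overall test, and the block changed no other call of these genes. The overall test gave 0 with scanner-processed signals and 0 unmoderated. Between clones 4 passed with no fold threshold, 1 with scanner-processed signals and 1 with the authors' log10 values. In V-S- against V-S+ the small differences of Cd40 and Fas changed sign: Cd40 stood at 0.024 with Cy3 alone and between -0.242 and 0.083 with 1 sample left out, and Fas between -0.184 and 0.159. The cause was not tested. Of 570 log2 changes recomputed, 501 kept their direction and side of the threshold. Median centring moved the median of all probes by 0.12 against V-S- and by -0.13 in V-S- against V-S+. Fas and Cd40 had the lowest Cy3 signal over background of the 5 probes, at 2.48 and 3.57 times in their dimmest samples.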
